A study of Mus musculus with 16 samples.

Results

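The step from 45 to 90 min of efferocytosis, the uptake of dying cells by a phagocyte, was read from 8 of the 16 RNA libraries of the series. The 4 libraries whose count columns are headed as macrophages with apoptotic cells at 90 min were set against the 4 headed as 45 min, over all genes of the table. The cells were mouse macrophages of 1 Hoxb8 line, labelled as bone marrow, which are grown from progenitors that the transcription factor Hoxb8 holds in an immature state. Both groups had received dying cells of the Jurkat line, a T cell leukaemia of human origin, and by their labels differed only in the length of exposure. The labels name no other genotype, allele or agent. The other 8 libraries, 4 of macrophages kept alone and 4 of macrophages after 180 min with apoptotic Jurkat cells, shared the model of the spread and give levels to read the change against. The series title links the uptake of dying cells to the release of paused RNA polymerase II, and the comparison asks which transcripts turned over between an early and a middle time. No library of macrophages kept alone is tied to 45 or to 90 min, so time in culture and time with apoptotic cells cannot be told apart. Separate cultures are not named for the 4 libraries of a group, so the p-values measure the spread between these libraries, which may be technical.

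A phagocyte that binds a dying cell first switches on immediate early genes, which need no new protein to be transcribed and whose short-lived messages encode transcription factors, phosphatases and RNA-binding proteins. Many of those products feed back on the signal that induced them, and many of their transcripts carry elements that speed their decay. A later wave of receptors, inhibitors of cytokine signalling and secreted factors follows, while lysosomes break down the engulfed cell and the macrophage handles its lipids, nucleotides and amino acids.

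Of 14168 genes tested with edgeR's quasi-likelihood test and Benjamini-Hochberg adjustment, 3984 (28.1%) were called at an adjusted p under 0.05. Of these 2096 (14.8%) were higher and 1888 (13.3%) lower at 90 min. A change of at least 2-fold was far less even, with 484 genes (3.42%) higher and 32 (0.226%) lower. Of the 484, 111 were coding genes and 207 were noncoding genes within introns, and the 484 became 282 with a stricter filter on low counts, 321 in libraries thinned to equal depth and 119 when only coding genes were fitted. The 32 became 20 with the stricter filter. The 4 libraries of 90 min lay wholly above the 4 of 45 min for 1825 genes (12.9%) and wholly below them for 1734 (12.2%). The median log2 fold change of all tested genes was 0.02. All fold changes below are log2 values of 90 over 45 min from that fit unless another pair is named, and levels are CPM, counts scaled to 1000000 per TMM-adjusted library, which do not correct for gene length and so compare a gene with itself. A gene is said to rise or fall only where it was called. The counts risen and fallen in each gene list below are to be read against 14.8% higher and 13.3% lower over all genes.

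Library totals ran from 24.4 to 41.7 M counts at 45 min and from 13.6 to 17.4 M at 90 min, so that every 45 min library was the deeper, and depth and time cannot be told apart. With all libraries thinned to 10690809 counts, 1479 genes were higher and 1409 lower. On the leading principal component, which held 21.33% of the variance, the 45 min libraries lay between -32.9 and -21.5 and the 90 min libraries between 7.80 and 20.4. Summed marker levels are counts per 1000000 of the library total, without the TMM adjustment. Of 20 macrophage markers none was at 0, and their summed level was 14500 to 15600 CPM at 45 min and 13200 to 13500 CPM at 90 min. Of 20 T cell markers 9 were at 0 in these 8 libraries, among them Cd3e, Cd3g, Cd8a, Trbc1 and Trbc2, and the sum of 117 to 123 CPM at 45 min and 90.3 to 116 CPM at 90 min was mostly Il2rg. Of 14 neutrophil markers 6 were at 0, including Elane and Prtn3, with sums of 14.6 to 17.1 and 13.2 to 15 CPM. The 9 B cell markers summed to 29.5 to 32.7 and 22.6 to 26.5 CPM, mostly Cd22. Dendritic cell, progenitor, and erythroid or mast cell markers summed to at most 8.64, 35.5 and 0.288 CPM at either time. In such bulk RNA fewer cells of a type and less RNA per cell cannot be told apart.

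**Figure D1:**
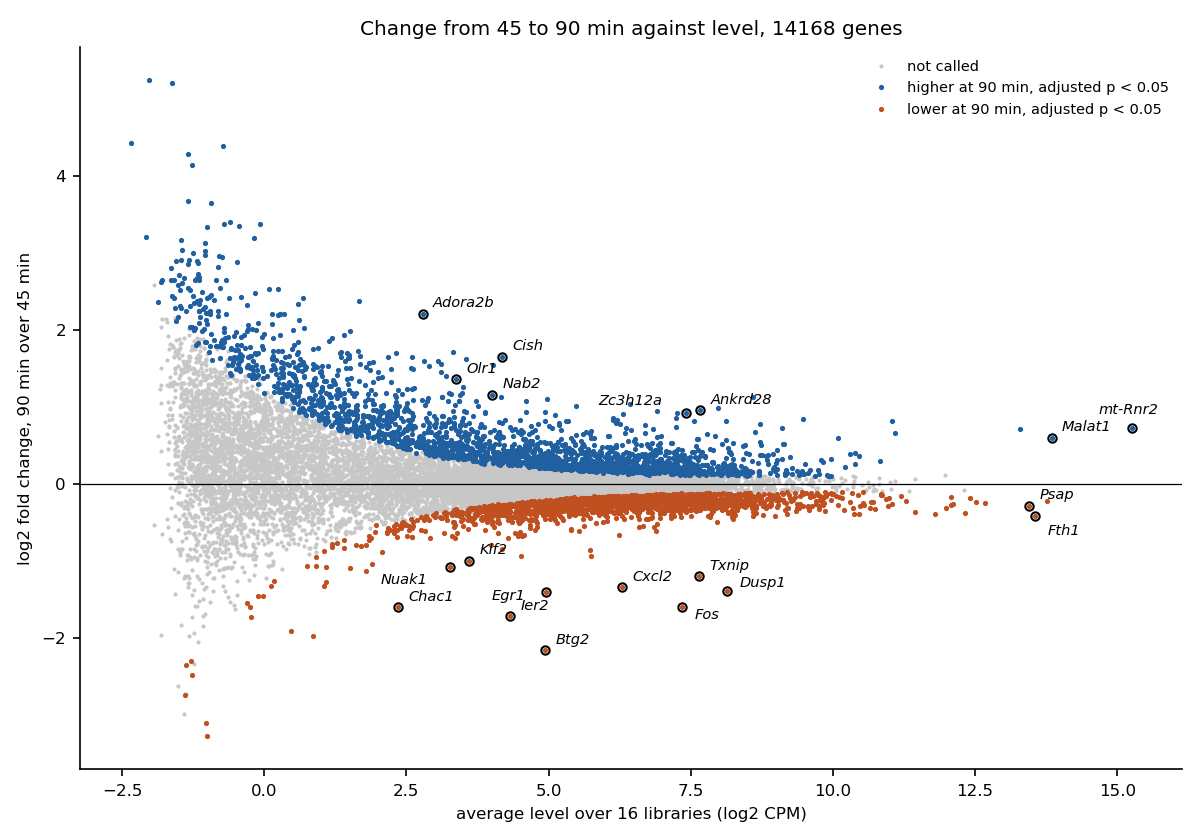
Each point is 1 of 14168 genes, with its average level over 16 libraries (log2 CPM) on the x axis and its log2 fold change of 90 over 45 min on the y axis. Blue genes were called higher and orange genes lower, and circled genes are named in the text. The largest falls at moderate and high level, such as those of Btg2, Fos and Dusp1, stand far below the other genes of their level, while most rises of over 2 log2 units lie at low level.

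Several of the largest falls were those of early response genes that were higher at 45 min than in macrophages alone. Btg2 (ENSMUSG00000020423, chromosome 1) encodes an antiproliferative protein of the BTG/TOB family that recruits the deadenylase complex to messages. It was at 55.7, 56.5, 51.7 and 57.4 CPM in the 45 min libraries and at 14.2, 10.2, 14.1 and 11.6 CPM in the 90 min libraries. Every 90 min library was below the macrophages kept alone as well, which ran from 33 to 38.5 CPM. The fall was 4.45-fold, -2.15 on the log2 scale (SE 0.091, adjusted p = 1e-27 by edgeR), and the level at 180 min was 14.6 ± 1.03 CPM (SD, n = 4).

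Transcription factors of the early response took different courses. Of 28 tested early transcription factors 14 fell and 6 rose, with a median of -0.17, against 13.3% lower and 14.8% higher over all genes. After each library was corrected for a trend with length and GC 10 fell and 7 rose, with a median of -0.108. Ier2, a nuclear immediate early protein, went from 39.8, 34, 33 and 38.5 CPM at 45 min to 10.1, 12.2, 11.6 and 10.5 CPM at 90 min (-1.71, SE 0.1, edgeR adjusted p = 8.3e-21). Fos, a subunit of the AP-1 factor, went from 275, 283, 273 and 241 to 95.6, 90.3, 84.5 and 85.7 CPM (-1.59, SE 0.052, edgeR adjusted p = 3.3e-33). Neither gene's libraries overlapped between the times, and both ended below all libraries of macrophages alone (15.8 to 18.2 CPM for Ier2 and 158 to 178 CPM for Fos). Egr1, a zinc-finger factor of the early growth response family, went from 74.9, 67.8, 59.3 and 74 to 20.5, 30.3, 25.6 and 27.8 CPM (-1.40, SE 0.094, edgeR adjusted p = 2.46e-18). At 90 min Egr1 was still above the 12.6 to 16.2 CPM of macrophages alone, and at 180 min it stood at 9.0 to 12.8 CPM. Its relatives Egr2 and Egr3 were not called. Egr2 was at 8.51, 7.52, 6.64 and 8.5 CPM and then at 8.69, 11.5, 8.35 and 8.94 CPM, a log2 difference of 0.26 (SE 0.18, edgeR adjusted p = 0.288), and Egr3 at 6.32, 4.05, 2.43 and 5.04 CPM and then at 4.38, 5.88, 4.31 and 5.11 CPM (0.14, SE 0.26, edgeR adjusted p = 0.741). Both overlapped between the times, against 1.01 to 1.8 and 0.0755 to 0.47 CPM in macrophages alone, and whether their change differed from that of Egr1 was not tested.

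Ier3, which protects cells from apoptosis, fell by 0.93 from 76.7 ± 3.65 to 40.4 ± 4.24 CPM (SD, n = 4 each), and Junb, another AP-1 subunit, by 0.30. Klf2, a factor that holds macrophages in a quiet state, fell by 0.99 (SE 0.13), from 10.9 to 15.8 CPM at 45 min to 5.98 to 7.71 CPM at 90 min. It had been at 10.8 to 13.9 CPM in macrophages alone and was back at 13.4 to 19.3 CPM at 180 min, so its 90 min libraries were the lowest of all 16. Nr4a1, a nuclear receptor, fell by 0.54 (edgeR adjusted p = 0.0174), a call that was lost with thinned libraries (-0.58) and whose adjusted p ran from 0.0039 to 0.117 over the settings tried. It was also lost with a length and GC trend removed (-0.42), without 45 min library 4 (-0.42) and without 90 min library 2 (-0.45). Jun (-0.05), Fosb (-0.29) and Klf4 (-0.09) were not called. Among the risers were the growth regulator Myc, from 22.5, 20.5, 19.7 and 18.4 to 38.2, 32.4, 28.9 and 29.8 CPM (0.67, SE 0.097), and Bhlhe40, a helix-loop-helix repressor (0.76, SE 0.052). From 90 to 180 min the log2 change was -0.43 for Myc and 0.11 for Bhlhe40, and the latter was not called in that pair.

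**Figure D2:**
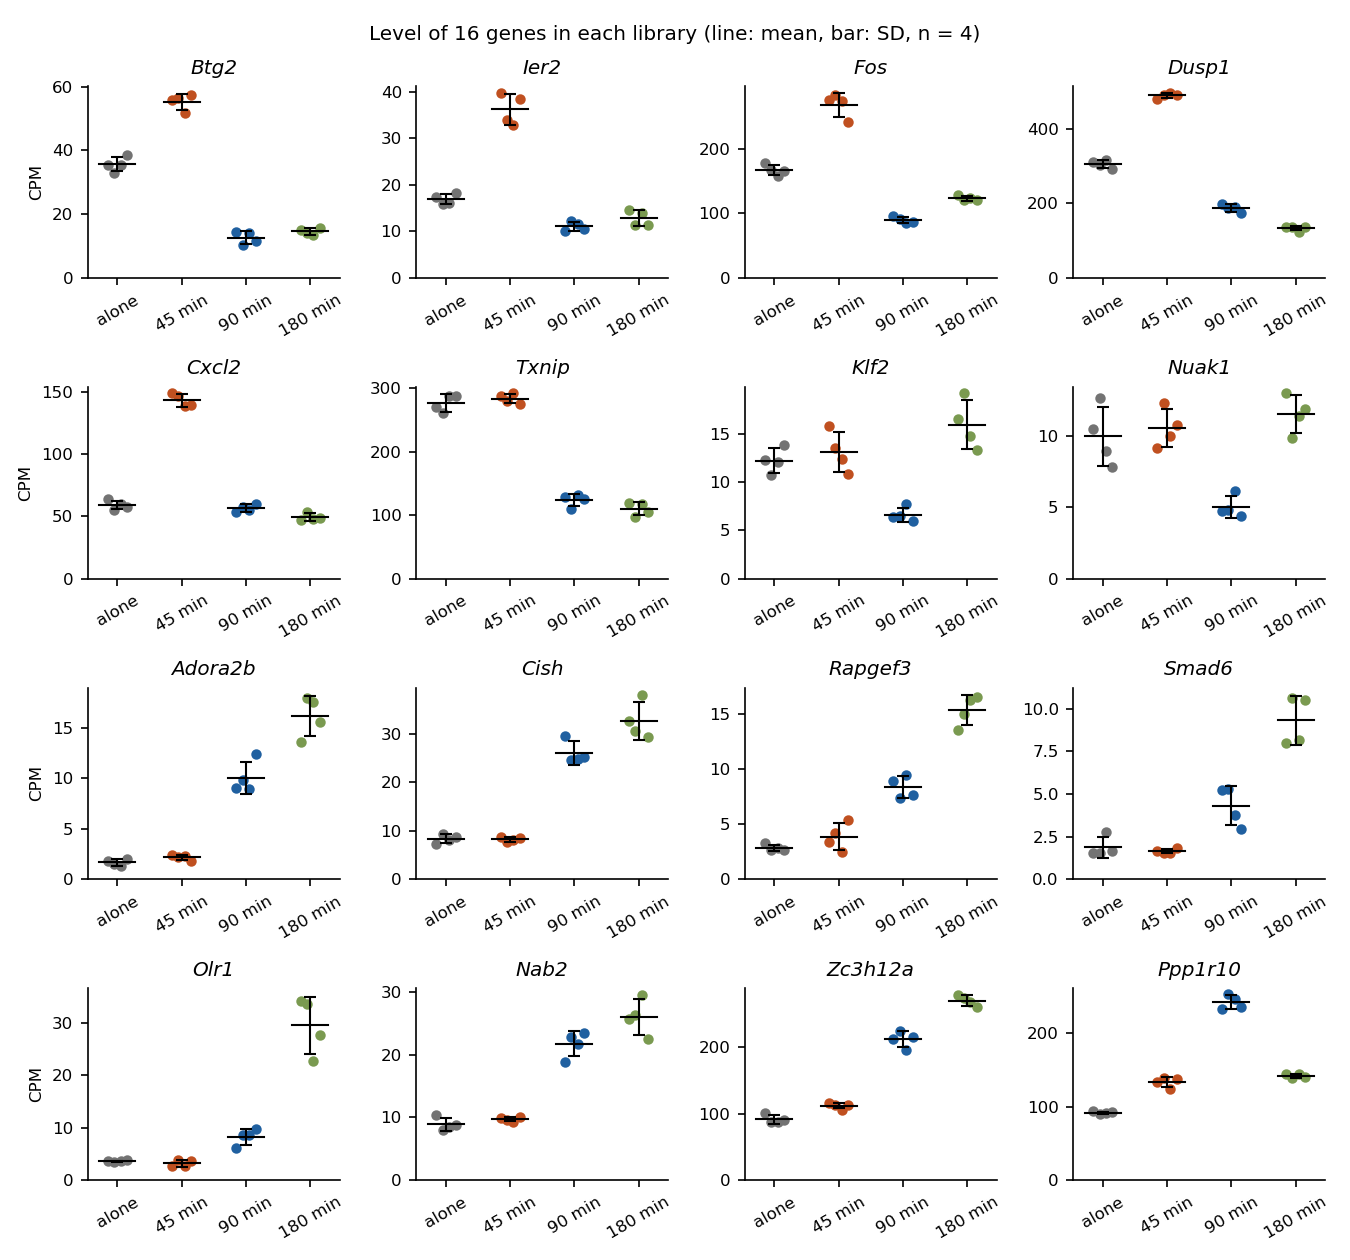
Levels of 16 genes in CPM (y axis, each starting at 0) in every library of macrophages alone and after 45, 90 and 180 min with apoptotic cells, with the mean and SD of 4 libraries. Btg2, Ier2, Fos, Dusp1 and Cxcl2 peak at 45 min, Txnip holds until 45 min and then falls, Klf2 and Nuak1 dip at 90 min, and Ppp1r10 peaks at 90 min, while Adora2b, Rapgef3, Smad6 and Olr1 are higher still at 180 min.

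The inhibitors that early signals induce moved in both directions. Of 17 tested MAP kinase phosphatases and Sprouty family genes 7 fell and 4 rose, against 13.3% lower and 14.8% higher over all genes. There were 4 to 7 falls and 2 to 5 rises over the settings tried. Dusp1, a nuclear phosphatase of p38 and JNK kinases, was at 482, 491, 498 and 492 CPM at 45 min and at 199, 187, 191 and 175 CPM at 90 min (-1.38, SE 0.045, edgeR adjusted p = 3.3e-33). The 45 min libraries were nearly equal and the 90 min ones were all below the 294 to 317 CPM of macrophages alone. The ERK phosphatases Dusp5 and Dusp6 fell by 0.60 (SE 0.067) and 0.56 (SE 0.058), and the kinase inhibitor Spry2 by 0.26. Dusp4, a nuclear ERK phosphatase, rose by 0.21 (SE 0.047) from a range of 175 to 189 CPM to one of 201 to 225 CPM.

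Of 16 tested regulators of message decay 4 fell and 4 rose, against 13.3% lower and 14.8% higher over all genes. With the length and GC trend removed 6 fell and 3 rose. Beside Btg2, Zfp36, which encodes the AU-rich element binding protein tristetraprolin, fell by 0.37 (SE 0.05). Zc3h12a, which encodes the endonuclease regnase-1, rose from 116, 112, 106 and 114 to 213, 225, 196 and 215 CPM (0.92, SE 0.05, edgeR adjusted p = 1.31e-22) and reached 261 to 279.6 CPM at 180 min. The nocturnin gene Noct rose by 0.71 and the BTG/TOB member Tob2 by 0.40. The BTG/TOB family members Btg2 and Tob2 moved in opposite directions.

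Promoter windows of 3 falling feedback genes are shown. They were chosen because each holds the full cyclic AMP response element, TGACGTCA, in the 250 bases before the RefSeq start site. They are Btg2, Dusp1 and Ppp1r15a, the last of which encodes the phosphatase subunit GADD34 and is described with the stress response genes. The windows, from RefSeq on GRCm38.p6 and 5′ to 3′ on the gene's own strand, lie at chr1:134079156-134079405 (minus strand), chr17:26508473-26508722 (minus strand) and chr7:45526269-45526518 (minus strand), with the element in capitals.
Btg2: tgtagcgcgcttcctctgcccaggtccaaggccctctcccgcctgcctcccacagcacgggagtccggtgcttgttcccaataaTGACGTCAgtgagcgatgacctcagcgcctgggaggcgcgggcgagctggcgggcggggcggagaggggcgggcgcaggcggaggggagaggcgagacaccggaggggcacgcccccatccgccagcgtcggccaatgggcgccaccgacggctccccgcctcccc
Dusp1: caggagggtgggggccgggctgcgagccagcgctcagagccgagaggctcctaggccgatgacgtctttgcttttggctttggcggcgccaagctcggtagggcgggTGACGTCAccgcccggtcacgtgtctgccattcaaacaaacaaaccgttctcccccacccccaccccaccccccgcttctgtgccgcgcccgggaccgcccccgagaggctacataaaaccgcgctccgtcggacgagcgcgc
Ppp1r15a: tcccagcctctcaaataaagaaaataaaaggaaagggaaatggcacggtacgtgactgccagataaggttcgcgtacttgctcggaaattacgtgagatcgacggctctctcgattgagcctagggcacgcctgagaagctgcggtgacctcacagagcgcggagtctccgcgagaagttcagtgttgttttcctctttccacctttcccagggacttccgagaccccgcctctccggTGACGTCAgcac
The element begins at position -166, -143 and -12 from the start site in that order. Over all 32851 mouse windows in the table, searched on both strands from 250 bases before to 50 after the start, 1.79% held it. Of the 15 largest falls 10 had a window and 2 of them, Btg2 and Dusp1, held the element, and of the 15 largest rises 9 had a window and 0 held it. Ppp1r15a was picked out after its window was searched, and a match of letters shows neither binding nor use. Of the other motifs searched, CACGTG was in the Dusp1 window (7.15% of all windows), TGATGNAA in that of Chac1 (3.97%) and an NF-kB consensus in that of Cxcl2 (0.411%).

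Among secreted signals more genes fell than rose. Of 27 tested cytokine and chemokine genes 8 fell, 3 rose and 16 were not called, against 13.3% lower and 14.8% higher over all genes, and 13 fell and 1 rose with the length and GC trend removed. Cxcl2, a chemokine that attracts neutrophils, fell from 149, 147, 138 and 139 to 53.4, 57.7, 55 and 60.4 CPM (-1.34, SE 0.058, edgeR adjusted p = 5.04e-27), which put it next to the 55.3 to 63.7 CPM of macrophages alone. Osm, a cytokine of the interleukin 6 family, fell from 30.1, 34.1, 27 and 32.7 to 14.5, 16.5, 14 and 19.6 CPM (-0.94, SE 0.096, edgeR adjusted p = 1.3e-11) and was at 25.9 to 29.4 CPM at 180 min. Macrophages alone had 15.4 to 16.6 CPM of Osm, so both genes were near their starting level at 90 min, and the log2 change from 90 to 180 min was 0.74 for Osm and -0.20 for Cxcl2. The anti-inflammatory cytokine Il10 was low throughout, at 5.24, 3.0, 3.01 and 2.47 CPM and then 1.24, 2.04, 0.99 and 1.34 CPM, with a fall of 1.27 (SE 0.33, edgeR adjusted p = 0.00237). That call was lost with thinned libraries (-1.10, edgeR adjusted p = 0.055, with a range of 0.000851 to 0.055 over the settings tried).

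Other calls among the chemokines were smaller. Ccl5, which attracts T cells and monocytes, fell by 0.41 (SE 0.044) and Ccl3 by 0.25 (SE 0.062). The monocyte attractant Ccl7 rose by 0.29, from a range of 869 to 928 CPM to one of 1038 to 1179 CPM, but not with a length and GC trend removed (0.09, edgeR adjusted p = 0.107, and 1.85e-09 to 0.107 over the settings tried). Ccl2 rose by 0.11 (edgeR adjusted p = 0.0213) and was not called in 8 of 19 other settings (0.00404 to 0.507). These were no filter, that trend removed (-0.04) and the fits without 45 min library 1, 2 or 4 or 90 min library 1, 3 or 4 (0.07 to 0.10 for Ccl2). Tnf, the central inflammatory cytokine, rose by 0.18 (SE 0.05) with overlapping libraries, 173 to 189 CPM against 188 to 214 CPM, and Il1b, the precursor of another, was not called (0.14, SE 0.12).

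Of 18 tested growth factor genes 6 rose and 4 fell, against 14.8% higher and 13.3% lower over all genes. Inhba, which encodes a subunit of activin A, rose from 126, 127, 148 and 136 to 245, 201, 234 and 218 CPM (0.74, SE 0.061, edgeR adjusted p = 6.46e-15) and stood at 118 to 142 CPM at 180 min. Each 90 min library was above every library of the other 3 groups. The platelet-derived growth factor gene Pdgfb rose by 0.80 (SE 0.13) and the heparin-binding factor Mdk by 1.10 (SE 0.25), the latter at low level and with overlapping libraries (2.06 to 4.49 and 4.24 to 9.48 CPM). Edn1, which encodes the vasoconstrictor endothelin, fell from 7.76, 6.37, 6.97 and 7.0 to 3.87, 2.85, 5.8 and 2.84 CPM (-0.88, SE 0.22, edgeR adjusted p = 0.00124). That call was lost with thinned libraries (-0.63, edgeR adjusted p = 0.11, with 8.23e-05 to 0.11 over the settings tried). Grn, the progranulin gene, fell by 0.31, and Igf1 rose by 0.18 but was at -0.05 and not called with the length and GC trend removed.

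Of 24 tested NF-kB subunits and feedback genes 9 rose and 5 fell, against 14.8% higher and 13.3% lower over all genes. There were 5 to 10 rises and 2 to 5 falls over the settings tried. The rises included Tnfaip3, which encodes the ubiquitin-editing enzyme A20 (0.28, SE 0.042), Nfkbia, the classical inhibitor (0.30), and Nfkbid, a nuclear inhibitor (0.53, SE 0.093). Another nuclear member, Nfkbiz, fell from a range of 152 to 173 CPM to one of 106 to 119 CPM (-0.52, SE 0.054). Of the 41 tested Toll-like and cytokine receptors with their adaptors 9 rose and 11 fell, led by Il1r1, the receptor of interleukin 1 (0.97, from a range of 3.44 to 4.86 CPM to one of 7.27 to 8.59 CPM), and the chemokine receptor Cxcr4 (0.40) among rises. Falls included the tumour necrosis factor receptor Tnfrsf1a (-0.37), the adaptor Myd88 (-0.36) and Ifngr1 (-0.33).

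In the integrated stress response, kinases that sense amino acid shortage or unfolded proteins slow translation and let Atf4 be made. Of 34 tested genes of that list 23 fell, 3 rose and 8 were not called, with a median of -0.30 against 0.02 for all genes, of which 13.3% fell and 14.8% rose. Atf4 fell from a range of 349.7 to 368 CPM to one of 269 to 289 CPM (-0.37, SE 0.043). Chac1, which degrades glutathione, went from 7.07, 9.7, 9.44 and 8.26 to 3.5, 2.97, 1.77 and 3.13 CPM (-1.59, SE 0.2, edgeR adjusted p = 3.3e-09), and Ddit4, an inhibitor of the growth kinase mTORC1, from 2.65, 2.59, 1.28 and 1.67 to 0.511, 0.466, 0.849 and 0.29 CPM (-1.97, SE 0.39, edgeR adjusted p = 8.45e-05). Chac1 went on to 1.38 to 2.12 CPM at 180 min, whereas Ddit4 was at 1.09 to 2.39 CPM. Ppp1r15a, whose product restarts translation by removing the phosphate from eIF2alpha, went from 71.6, 79.2, 76.9 and 70.8 to 37.5, 46.2, 41.2 and 39.6 CPM (-0.86, SE 0.067, edgeR adjusted p = 9.92e-16). Slc7a11, the cystine transporter, ran against the list and rose from 46.1, 43, 43.9 and 41.7 to 74.8, 68.7, 79.1 and 86.9 CPM (0.83, SE 0.067, edgeR adjusted p = 4.31e-15). It reached 111 to 131 CPM at 180 min. The stress-linked factors Cebpb and Cebpg also rose, by 0.40 (SE 0.049) and 0.33. With the length and GC trend removed 18 of the 34 fell and 4 rose.

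A regulator of sugar uptake fell sharply after 45 min. Txnip, an arrestin that binds thioredoxin and takes glucose transporters off the surface, differed by 0.04 between 45 min and macrophages alone. It was at 271, 260.1, 287 and 288 CPM in macrophages alone, 287, 279.7, 293 and 275 CPM at 45 min and 129, 109.9, 131 and 125 CPM at 90 min, a fall of 1.20 (SE 0.053, edgeR adjusted p = 1.13e-26). No 90 min library came near a 45 min one, and 180 min was at 97.4 to 119 CPM. Of 13 tested genes in its network of MLX partners and arrestin relatives 2 were lower and 2 higher, near the 13.3% and 14.8% over all genes. Txnip was among those lower, and those higher were Mga (0.29) and Mxi1 (0.31). Mnt, the other one lower (-0.17, edgeR adjusted p = 0.037), was not called in 9 of 19 other settings (0.015 to 0.73), among them the fits without 45 min library 2 or 90 min library 1 or 3 (-0.18 to -0.16). The arrestin relative Arrdc3 was not called (0.14).

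Over all genes 13.3% were lower and 14.8% higher. Of 35 tested models of glycolysis, the pentose phosphate pathway and lactate transport 21 fell and 2 rose, with a median of -0.24 (17, 2 and -0.135 with the length and GC trend removed). The falls were small, such as those of Gapdh (-0.40, SE 0.045), the pyruvate kinase Pkm (-0.32, SE 0.04) and the lactate dehydrogenase Ldha (-0.34, SE 0.049). Pfkfb3, whose product makes the activator of phosphofructokinase, rose from a range of 245 to 260.2 CPM to one of 322 to 339.8 CPM (0.40, SE 0.044, edgeR adjusted p = 1.22e-10), and the other rise was that of the phosphofructokinase Pfkp (0.16), a call lost without 45 min library 1, 3 or 4 or 90 min library 1 or 2 (0.11 to 0.14) and with no filter (edgeR adjusted p from 0.00576 to 0.155). The glucose transporter Slc2a1 (-0.01, SE 0.052) and the lactate transporter Slc16a1 (-0.04, SE 0.097) were not called. Of 23 amino acid and other solute carriers 6 rose and 5 fell, and 9 rose and 2 fell with the length and GC trend removed. Beside Slc7a11, the arginine and lysine transporter Slc7a2 rose by 0.86 (SE 0.13), from a range of 4.94 to 7.02 CPM to one of 9.87 to 11.9 CPM, and was at 20.03 to 23 CPM at 180 min. Slc38a2, a glutamine transporter, fell by 0.34, and Slc3a2, the heavy chain that pairs with several of these carriers, by 0.29.

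Among called, non-overlapping genes averaging at least 1 log2 CPM and not named as clones, the rise of greatest fold was that of Adora2b (ENSMUSG00000018500, chromosome 11). Adora2b, a receptor for extracellular adenosine that raises cyclic AMP, was itself at low level (average log2 CPM 2.79). It was at 2.39, 2.21, 2.27 and 1.84 CPM at 45 min and at 9.05, 9.83, 8.91 and 12.4 CPM at 90 min. The 45 min libraries sat close to macrophages alone (1.32 to 2.04 CPM), and every 90 min library was above all of them. The rise was 4.65-fold, 2.22 on the log2 scale (SE 0.17, edgeR adjusted p = 2.56e-16), and 180 min was at 13.6 to 17.9 CPM. Of 43 tested adenosine and cyclic AMP genes 9 rose and 4 fell, and 30 were not called. Over all genes 14.8% were higher and 13.3% lower. The prostaglandin E2 receptor Ptger4, also coupled to cyclic AMP, went from 43.1, 40.4, 39.99 and 39.9 to 69.1, 63.9, 59.1 and 64 CPM (0.65, SE 0.065, edgeR adjusted p = 5.82e-12). Rapgef3, the exchange factor Epac1 that cyclic AMP activates, went from 3.4, 4.22, 2.51 and 5.35 to 8.91, 7.39, 9.48 and 7.66 CPM (1.08, SE 0.17, edgeR adjusted p = 6.33e-07). At 180 min Rapgef3 was at 13.6 to 16.5 CPM, a further 0.88 on the log2 scale, and Ptger4 at 71.5 to 82.9 CPM. The phosphodiesterase Pde8a, which breaks down cyclic AMP, rose by 0.48 and the transcription factor Creb5 by 0.57. Sik1, a kinase that holds back the coactivators of CREB, fell from a range of 47.6 to 52 CPM to one of 28 to 37 CPM (-0.59, SE 0.076).

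Genes that act back on cytokine receptors rose and fell in about equal number. Of 26 tested genes of cytokine signal feedback 7 rose and 8 fell, against 14.8% higher and 13.3% lower over all genes. There were 6 to 8 rises and 4 to 10 falls over the settings tried. Cish (ENSMUSG00000032578, chromosome 9), a STAT-induced inhibitor of cytokine receptors, was at 8.71, 7.66, 8.16 and 8.45 CPM and then at 29.6, 24.6, 24.8 and 25.2 CPM (1.66, 3.15-fold, SE 0.1, edgeR adjusted p = 1.05e-19). The 45 min libraries lay within the 7.36 to 9.36 CPM of macrophages alone. Socs1, an inhibitor of JAK kinases, rose from 20.5, 15.6, 15.2 and 18.3 to 30.8, 33.9, 30.2 and 29.4 CPM (0.83, SE 0.093, edgeR adjusted p = 2.03e-10). The SOCS box gene Spsb1 rose from 3.73, 2.48, 4.7 and 4.02 to 7.08, 8.96, 7.99 and 8.65 CPM (1.14, SE 0.16, edgeR adjusted p = 6.78e-08). Spsb1 then stood at 18.6 to 25.4 CPM and Socs1 at 25.4 to 28.6 CPM at 180 min. Socs4 rose by 0.39, and Bcl6, a transcriptional repressor, fell from a range of 143 to 154 CPM to one of 91.7 to 99.7 CPM (-0.61, SE 0.053).

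The promoter windows of Cish and Adora2b are shown as 2 of the 3 among the 15 largest rises that hold a searched motif, Olr1 being the other. The Cish window of chr9:107296409-107296678 (plus strand, GRCm38.p6, RefSeq) reaches from 250 bases before the start site to the end of a pair of STAT-type elements, TTCNNNGAA, in capitals. The Adora2b window of chr11:62248734-62248983 (plus strand) has in capitals an EGR-type element, GCGGGGGCG, read on the opposite strand.
Cish: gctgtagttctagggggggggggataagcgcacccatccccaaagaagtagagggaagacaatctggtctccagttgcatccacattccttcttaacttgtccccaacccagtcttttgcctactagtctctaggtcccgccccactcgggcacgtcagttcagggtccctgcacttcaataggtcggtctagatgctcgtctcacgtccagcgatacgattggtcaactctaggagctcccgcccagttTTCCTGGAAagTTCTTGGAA
Adora2b: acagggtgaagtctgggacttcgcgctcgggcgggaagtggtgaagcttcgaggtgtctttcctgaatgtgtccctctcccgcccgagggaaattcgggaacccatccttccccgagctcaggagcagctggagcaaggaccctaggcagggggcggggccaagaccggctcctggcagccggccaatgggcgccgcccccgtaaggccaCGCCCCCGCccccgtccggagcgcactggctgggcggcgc
The Cish elements begin at positions 0 and 11 counted from the start site and the Adora2b element at position -40. Windows with TTCNNNGAA made up 8.3% of all 32851 and those with GCGTGGGCG or GCGGGGGCG 3.47%. The EGR-type letters were in 1 of 9 windows of the largest rises, that of Adora2b, and in 2 of 10 of the largest falls, Klf2 and Nuak1. Olr1 held TGANTCA, as did 7.81% of windows.

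Other leading rises included feedback inhibitors of growth factor pathways. Of 24 tested TGF-beta and BMP genes 9 rose and 1, the receptor Acvr1b (-0.36), fell, against 14.8% higher and 13.3% lower over all genes. With the length and GC trend removed 7 rose and 3 fell. The inhibitory Smad6 was at 1.67, 1.57, 1.53 and 1.82 CPM and then at 5.26, 5.3, 3.75 and 2.96 CPM (1.38, SE 0.23, edgeR adjusted p = 3.51e-06), and its relative Smad7 at 11.7, 9.73, 12.8 and 12.6 CPM and then at 16.2, 16.8, 16.3 and 17.9 CPM (0.52, SE 0.1, edgeR adjusted p = 7.47e-05). Both were higher still at 180 min, at 7.97 to 10.7 and 27 to 32.5 CPM. The signal transducer Smad3 rose by 0.37 (SE 0.062) and Id2, an inhibitor of helix-loop-helix factors, from 207, 195, 195 and 203 to 275, 268, 274 and 276 CPM (0.45, SE 0.044, edgeR adjusted p = 2.88e-12). Of 18 tested EGR partners and targets 7 rose and 4 fell, with 2 to 5 falls over the settings tried. Nab2, the co-repressor that EGR factors induce and that restrains them, went from 9.92, 9.56, 9.28 and 10.1 to 18.9, 22.8, 21.8 and 23.4 CPM (1.16, SE 0.11, edgeR adjusted p = 2.9e-13). Its 45 min libraries lay in the 7.95 to 10.3 CPM range of macrophages alone, at the time when Egr1 was at its highest of the 4 groups. The plasminogen activator receptor Plaur (0.65) and the hyaluronan receptor Cd44 (0.31) also rose.

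Among the receptors through which macrophages meet dying cells, rises and falls were mixed. Of 40 tested receptors and bridging molecules 8 rose and 11 fell, against 14.8% higher and 13.3% lower over all genes. Olr1, the scavenger receptor LOX-1, was at 2.62, 3.85, 2.64 and 3.63 CPM and then at 6.13, 8.61, 8.63 and 9.64 CPM (1.37, SE 0.16, edgeR adjusted p = 2.87e-10), and at 34.2, 33.5, 22.7 and 27.6 CPM at 180 min. Macrophages alone, at 3.53 to 3.76 CPM, and 45 min libraries overlapped. Stab1, which encodes the phosphatidylserine receptor stabilin 1, rose from 309, 339.9, 300.3 and 311 to 508, 470.4, 419 and 444 CPM (0.55, SE 0.052, edgeR adjusted p = 9.31e-13). The lipid-binding receptor Cd300lf rose by 0.49 and the endocytic receptor Lrp1 by 0.40, the latter after a lower level at 45 min than alone (1302 ± 76.2 CPM alone, 1034 ± 87.2 CPM at 45 min and 1364 ± 92.5 CPM at 90 min, SD, n = 4 each). The complement chain gene C1qb fell by 0.33, and the receptor tyrosine kinase Mertk, which binds bridged phosphatidylserine, fell by 0.18 (SE 0.054) from a range of 78.7 to 85.2 CPM to one of 70.8 to 72.1 CPM.

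The machinery that takes up and digests the cell was slightly but widely lower. Of 46 tested engulfment and actin genes 24 fell and 2 rose (median -0.13). Of 46 phagosome and lysosome genes 29 fell and 1 rose (median -0.17). Over all genes 13.3% were lower, and in the quintile of coding genes with the highest average level 34% were. With the length and GC trend removed 20 fell and 3 rose in the former list, and 26 fell and 2 rose in the latter. The cofilin gene Cfl1 fell by 0.32 (SE 0.042), the GTPase Rac2 by 0.31, profilin Pfn1 by 0.30 and the actin genes Actg1 and Actb by 0.31 and 0.25. The proteases Lgmn, Ctsd and Ctsb fell by 0.39 (SE 0.038), 0.36 (SE 0.04) and 0.22, the saposin precursor Psap by 0.28 and the lysosomal glycoprotein Cd68 by 0.33. None of these falls reached 2-fold, and the only lysosomal rise was that of the calcium channel gene Mcoln1 (0.18). The Mcoln1 call was lost in 6 of 19 other settings, in thinned libraries and without 45 min library 1, 3 or 4 or 90 min library 1 or 2 (edgeR adjusted p from 0.000306 to 0.105). Macrophage markers moved with them, 13 of 19 lower and 2 higher with a median of -0.18, the falls including Tyrobp (-0.32), the lineage factor Spi1 (-0.30) and the Fc receptor Fcgr1 (-0.28). The part of macrophage content in these falls was not tested.

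Of 25 tested NRF2 targets, which guard against oxidation, 13 fell and 2 rose, against 13.3% lower and 14.8% higher over all genes. The ferritin genes Fth1 and Ftl1 fell by 0.41 (SE 0.039) and 0.39 (SE 0.041), the glutathione peroxidase Gpx1 by 0.43 and Prdx6 by 0.26. Hmox1, which degrades haem, fell by 0.15 with overlapping libraries and was then at 1072 to 1228 CPM at 180 min, against 696 to 774 CPM at 90 min. Of 24 genes of cholesterol efflux and its nuclear receptors 8 fell and 5 rose. The lipid carrier Apoe fell by 0.51 (SE 0.087), the phospholipid enzyme Lpcat3 by 0.42 and the desaturase Scd2 by 0.38, while the efflux pump Abca1 rose by 0.15 (SE 0.039) from a range of 651 to 706 CPM to one of 732 to 798 CPM and Arl4c by 0.30. Of 24 cholesterol synthesis genes 5 fell and 1 rose, with 0 to 6 falls over the settings tried. Hsd17b7, a sterol reductase, fell by 0.40 (edgeR adjusted p = 0.00826), a call lost in thinned libraries (-0.36, with 0.00201 to 0.0976 over the settings tried). Chaperone genes fell in 9 of 27 cases and rose in 0 (15 and 0 with the length and GC trend removed), with Calr at -0.30, Hsp90ab1 at -0.25 and Hspa5 at -0.24.

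Of 41 tested interferon-induced genes 21 fell, 2 rose and 18 were not called, with a median of -0.12, against 13.3% lower and 14.8% higher over all genes. Irf7, the factor that amplifies the response, fell from a range of 1341 to 1397 CPM to one of 1011 to 1135 CPM (-0.34, SE 0.04). Usp18 fell by 0.35, Ifitm3 by 0.39 and Cmpk2 by 0.28. Cmpk2 was at 1522 to 1609 CPM at 90 min and at 792 to 909 CPM at 180 min, a log2 change of -0.90 between these times. Oas2, an RNA sensor, was an exception and rose from a range of 182 to 208 CPM to one of 250.3 to 281 CPM (0.42, SE 0.054).

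**Figure D3:**
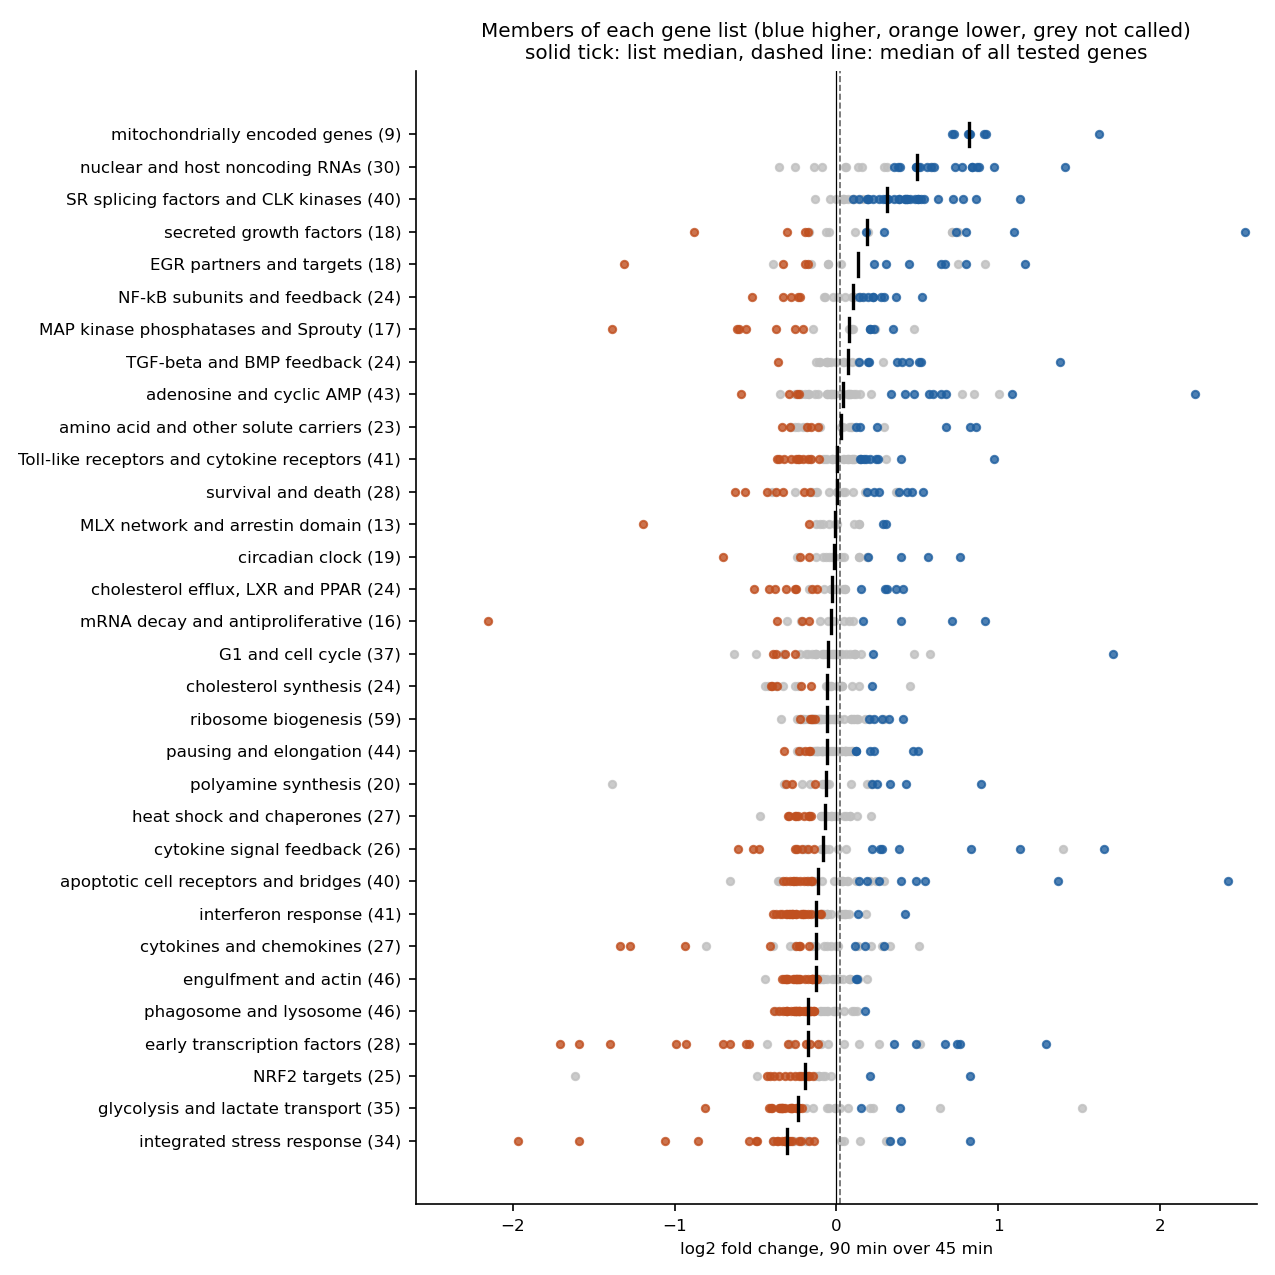
Log2 fold changes of 90 over 45 min (x axis) for the tested members of 32 gene lists (y axis, number tested in parentheses), with called members in blue (higher) or orange (lower) and others in grey. Mitochondrially encoded genes, nuclear noncoding RNAs and SR splicing factors lie to the right (medians 0.82, 0.50 and 0.31), and stress response, glycolysis and NRF2 genes to the left (-0.30, -0.24 and -0.19).

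Splicing regulators rose in most cases, against 14.8% higher and 13.3% lower over all genes. Of 40 tested SR proteins, their relatives and CLK kinases, which act on pre-messenger RNA, 30 rose and 0 fell, with a median of 0.31, and 27 rose and 1 fell with the length and GC trend removed. Srsf2 went from 85.2, 82.8, 85.5 and 87.4 to 149, 139, 129.9 and 144 CPM (0.72, SE 0.055, edgeR adjusted p = 3.41e-16), and the heterogeneous nuclear ribonucleoprotein gene Hnrnpa2b1 from 187, 196, 197 and 189.9 to 319, 273, 287 and 311 CPM (0.63, SE 0.049, edgeR adjusted p = 9.92e-16). Luc7l3, a U1-associated factor, rose by 0.86, Rsrp1 by 0.78 and Hnrnpdl by 0.54. The libraries of 31 of the 40 genes were separate and higher at 90 min, as were those of 12.9% of all genes. At 180 min Srsf2 was at 155 to 176 CPM.

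Noncoding transcripts of the nucleus rose too. Of 30 tested named ones 18 rose and 0 fell, with a median of 0.50, against 14.8% higher and 13.3% lower over all genes. Malat1, an abundant RNA of nuclear speckles, went from 12268 ± 1425 to 18642 ± 1688 CPM (0.60, SE 0.055), and Neat1, the scaffold of paraspeckles, from 449, 613, 544 and 489 to 1049, 853, 853 and 997 CPM (0.84, SE 0.072, edgeR adjusted p = 2.38e-14). Kcnq1ot1, an imprinted antisense RNA, went from 34.8, 46.9, 38.8 and 36.9 to 57.2, 79.8, 60.9 and 82.5 CPM (0.84, SE 0.088, edgeR adjusted p = 3.15e-11). For Kcnq1ot1 the 90 min libraries lay below or within the 72.5 to 102 CPM of macrophages alone, while for Neat1 they lay above its 346 to 454 CPM. Dleu2 (0.77) and Tug1 (0.49) rose as well. Whether counting used strand is not given in the sources used here, so antisense and overlapping genes such as Kcnq1ot1 are uncertain.

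The gene classes are set against 14.8% higher and 13.3% lower over all genes. By class, 840 tested noncoding genes lying within introns of same-strand coding genes had 275 rises, 207 of them of at least 2-fold, and 3 falls. Their median was 0.82 at 90 against 45 min, -0.72 at 45 min against macrophages alone and 0.13 at 180 against 90 min, so that the class was lowest at 45 min, and these pairs share libraries. The 1271 other long noncoding genes had 266 rises and 7 falls (median 0.42), and 499 pseudogenes 52 and 7. Of 11436 coding genes 1478 rose and 1869 fell, with 111 and 26 of at least 2-fold and a median of -0.02. Genes of ribosomal proteins fell in 64 of 83 cases and rose in 1 (median -0.25), and their many pseudogenes make single members uncertain. Intronic noncoding genes took 0.109 ± 0.0126% of counts at 45 min and 0.182 ± 0.0236% at 90 min (SD, n = 4 each), against 0.165% in macrophages alone and 0.195% at 180 min. Other long noncoding genes took 1.78 ± 0.175% and 2.64 ± 0.228%, ribosomal protein genes 1.05 ± 0.0315% and 0.883 ± 0.0271%, and other coding genes 92.9 ± 0.24% and 89.7 ± 0.516%. For each of 5 classes tested the groups did not overlap. A two-sided exact permutation test gave p = 0.0286, the smallest that 4 against 4 allows, with the same value after adjustment. The shares are parts of the same total, so a higher share of some classes lowers that of others. These 5 tests are therefore not separate results.

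The mitochondrial genome's own transcripts made up the other class. Of 12 tested genes 11 rose and 0 fell, against 14.8% higher and 13.3% lower over all genes. Mitochondrial genes took 3.756, 3.593, 3.484 and 3.335% of counts at 45 min and 5.116, 5.976, 6.042 and 6.404% at 90 min, against 4.45% in macrophages alone and 7% at 180 min (means of 4). All 9 tested members of the mitochondrially encoded list rose, with a median of 0.82 against 0.02 for all genes. The cytochrome oxidase gene mt-Co1 rose by 0.82 (SE 0.059), mt-Cytb by 0.92 (SE 0.071), mt-Nd1 by 0.82, mt-Nd2 by 0.91 and the large ribosomal RNA mt-Rnr2 by 0.72. The largest rise was that of mt-Nd6, the protein gene on the other strand, from 5.04, 4.56, 4.53 and 7.07 to 16, 13.2, 17.9 and 19.1 CPM (1.62, SE 0.15, edgeR adjusted p = 4.16e-13). All 9 also rose with a length and GC trend removed, with a median of 0.47.

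**Figure D4:**
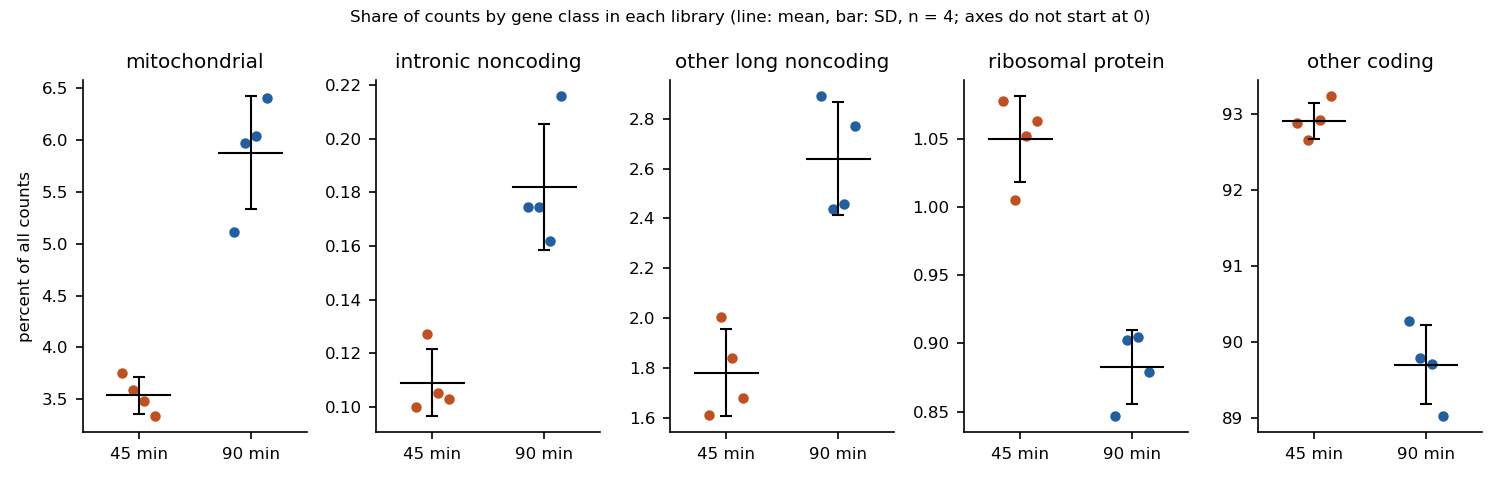
Percent of all counts (y axis, not starting at 0) taken by 5 gene classes in each of the 4 libraries at 45 min and at 90 min, with mean and SD. Mitochondrial, intronic noncoding and other long noncoding shares are higher in every 90 min library than in any 45 min library, and ribosomal protein and other coding shares are lower.

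The properties of coding genes moved with the change. In the quintile of coding genes lowest in exonic GC content 25% rose and 3.32% fell, and in the highest quintile 7.48% rose and 26.8% fell. In the quintile with the shortest exonic length 5.59% rose and 24% fell, and in the longest 24.4% rose and 7.08% fell. In the quintile with the highest average level 17.8% rose and 34% fell. With a trend on length and GC removed from each library 1967 genes rose and 1817 fell, against 2096 and 1888 without. The part of sequence composition in single calls was not tested beyond that setting.

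**Figure D5:**
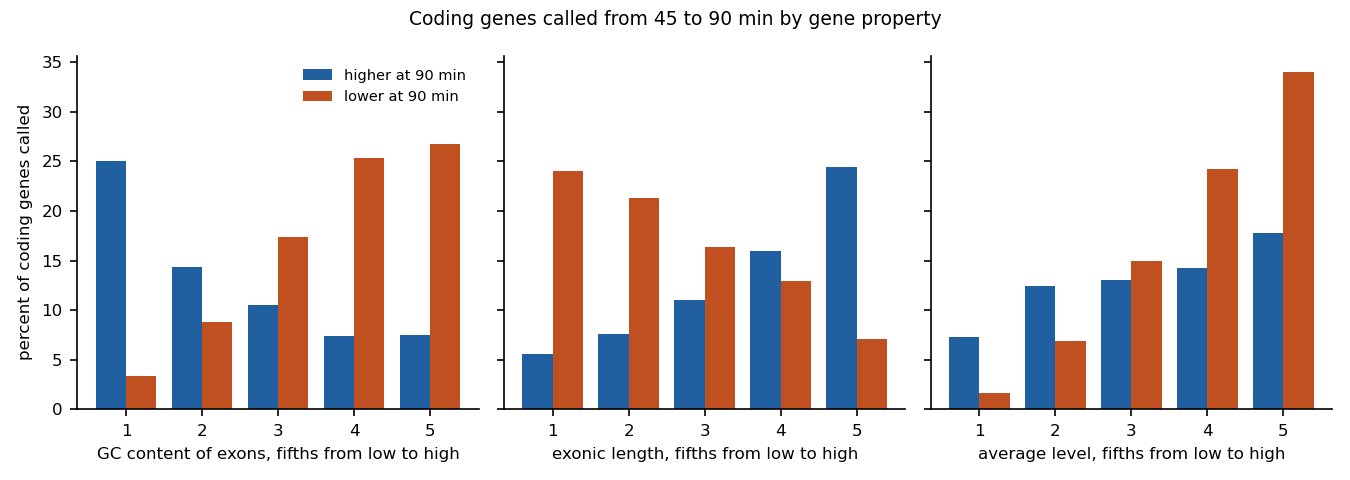
Percent of coding genes called higher (blue) or lower (orange) at 90 than at 45 min (y axis from 0) in quintiles of exonic GC content, exonic length and average level (x axes, from low to high). Rises go from 25% to 7.48% with increasing GC and from 5.59% to 24.4% with increasing length, and falls go the opposite way.

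Other genes with the smallest p among rises were not members of the signalling lists. Ankrd28, a subunit of the protein phosphatase 6 complex, went from 131, 137, 143 and 133 to 273, 263, 255 and 265 CPM (0.96, SE 0.048, edgeR adjusted p = 5.68e-24), and Gas2l3, a linker of actin and microtubules, from 81.2, 75.2, 75.4 and 84.8 to 148, 159, 156 and 149.9 CPM (0.95, SE 0.052, edgeR adjusted p = 1.31e-22). The log2 differences from macrophages alone to 45 min and from 90 to 180 min were -0.02 and 0.07 for Ankrd28 and -0.12 and 0.10 for Gas2l3. Ankrd33b rose from a range of 50.4 to 59.3 CPM to one of 109 to 118 CPM (1.04, SE 0.059), with 0.01 before and 0.20 after. Ppp1r10, the nuclear targeting subunit PNUTS of protein phosphatase 1, peaked instead. It was at 134, 139, 124 and 138 CPM at 45 min, 233, 253, 247 and 236 CPM at 90 min and 144, 138, 145 and 140.4 CPM at 180 min (0.86 from 45 to 90 min, SE 0.047, edgeR adjusted p = 1.72e-22).

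The remaining large rises, like that of Adora2b, lay at low level. The aminoacyl-tRNA synthetase gene Mars2, of mitochondria, went from 3.14, 4.25, 5.07 and 3.0 to 9.71, 12.8, 10.6 and 11.1 CPM (1.53, SE 0.17), Trim17, a ubiquitin ligase, from a range of 2.23 to 3.71 CPM to one of 6.69 to 9.64 CPM (1.49) and Klhl42, an adaptor of a ubiquitin ligase, from a range of 5.27 to 6.51 CPM to one of 11.8 to 16 CPM (1.19). In macrophages alone Klhl42 was at 9.38 to 10.8 CPM, above all its 45 min libraries, and Mars2 at 3.76 to 6.8 CPM, which its 45 min libraries overlapped. Fhad1 (1.71), Bbs12 (2.84-fold), Gdpd3 (1.24) and Col11a2 (1.27) were each under 6 CPM at 90 min. The linker histone gene Hist1h1d rose by 1.65, and reads of such genes may come from closely similar family members. Cables1, a regulator of cyclin-dependent kinases, rose by 1.71 to a range of 1.53 to 4.07 CPM and was at 4.7 to 7.33 CPM at 180 min.

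Of the largest falls outside the early response, Nuak1, an AMPK-related kinase, went from 9.16, 12.3, 10.02 and 10.8 to 4.75, 4.83, 6.15 and 4.35 CPM (-1.08, SE 0.15, edgeR adjusted p = 7.01e-08). Like Klf2 it was not low at 180 min, at 13, 9.83, 11.4 and 11.9 CPM, or in macrophages alone, at 7.83 to 12.7 CPM. Fam43a (-1.13), Praf2 (-1.03) and the pseudogene Bambi-ps1 (-1.08), which may share reads with its parent gene, were all under 6 CPM.

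Of 44 tested pausing and elongation factors 6 rose and 5 fell, near or under the shares of all genes (14.8% higher and 13.3% lower). Ccnt2, a cyclin of the pause-release kinase, rose by 0.50 (SE 0.063) and the termination factor Pcf11 by 0.47 (SE 0.054), while the kinase gene Cdk9 itself was not called (0.05, SE 0.056). Polr2a, which encodes the catalytic subunit of the polymerase, fell by 0.19 and the elongation factor Supt5 by 0.23, and neither was called with the length and GC trend removed (-0.09 and -0.10). Of 59 ribosome biogenesis genes 5 rose and 5 fell (3 to 7 and 1 to 8 over the settings tried), of 37 cell cycle genes 2 and 4, and of 20 polyamine genes 5 and 3. Odc1, which makes putrescine from ornithine, was at 118 to 130.4 CPM and then at 128 to 138 CPM (0.09, SE 0.055, not called), while the catabolic enzymes Smox (0.43) and Sat1 (0.25) and the antizyme inhibitor Azin1 (0.33) rose. Of 28 survival and death genes 7 rose and 7 fell. Genes linked to p53 moved both ways. Mdm2, the ligase of p53, rose by 0.39 (SE 0.041), and Cdkn1a and Pmaip1 fell by 0.38 (SE 0.045) and 0.43. The death effector Bak1 fell by 0.33. Of 19 clock genes 4 rose and 3 fell, Bhlhe41 by 0.40 upward and the repressor Nfil3 by 0.70 downward.

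Genes called from 45 to 90 min were also read in 180 min against macrophages alone, a pair that shares no library with 90 against 45 min. Both pairs come from the same fit and its model of the spread. The pair cannot tell whether a change lasted, because a rise or fall after 45 min may only return a gene to its level alone. Over all genes 15.1% were higher and 16% lower at 180 min than alone. Of the 2096 genes that rose from 45 to 90 min 49.3% were higher and 5.1% lower at 180 min than alone. Of the 1888 that fell 48.5% were lower and 2.07% higher. Among the 10184 genes not called the shares were 10.5% higher and 12.2% lower. Of the 32 that fell at least 2-fold 12 were below macrophages alone at 180 min and 0 above, and of the 484 that rose at least 2-fold 141 were above and 8 below.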

How the data were processed

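RNA of 16 libraries was read from 1 deposited table of counts, whole reads per Ensembl gene that the authors had derived from rRNA-depleted total RNA. Per the submitters' processing notes the build was mm39 and the tools used were HTSeq, SAMtools and STAR 2.7.9a. The strand setting of the counting and the handling of human Jurkat reads are not given in these sources. Of 55416 genes 25663 had a count, and symbols, lengths and GC content came from GENCODE M21 (GRCm38), from which no coordinate is printed (52135 IDs matched). Columns were matched to groups by their headers, which carry no replicate number, and 0 columns were left out.

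Genes passing edgeR's filterByExpr (minimum count 10, total 15) were scaled by TMM and fitted with 1 term per group over all 16 libraries in edgeR 4.0.16 under R 4.3.3 (quasi-likelihood F test, Benjamini-Hochberg adjustment over 14168 genes, threshold 0.05). SE is the coefficient over the root of F. The common spread between libraries was 7.81%. Replicates differed beyond sampling noise, with chi-square per degree of freedom of 4.756 to 8.069. On simulated counts with 200 genes changed the fit recovered 67% of 1.5-fold and 79% of 2-fold changes with 4 false calls. Python 3.11.15, DESeq2 1.42.0 and mgcv 1.9.3 served for summaries and alternatives.

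Named genes were the 15 largest changes each way among called, non-overlapping genes whose average level reached 1 on the log2 CPM scale, the 10 with the smallest p each way, up to 5 members with the smallest p per list and 46 set genes. A few other genes in the text, among them Cebpg and Mcoln1, met no part of this rule. The members and lists were chosen with earlier results of these data known. Alternatives covered normalization, filters, libraries in the fit, depth, gene classes, a length and GC trend, DESeq2 and leaving out each library. A few named genes are not reported here.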

Additional observations from a re-analysis of the deposited data

Results flagged for a closer look

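In groups of 4 libraries a single library stood apart from the other 3 in 11 of 374 groups of the named genes at 45 and 90 min (the gap to its neighbour took most of the group's range), and chance alone marks about 5% of groups. At 90 min library 1 was at 29.6 CPM of Cish, 46.7 CPM of Ier3 and 81.9 CPM of Ccl3. Library 2 of that time was at 2.91 CPM of Bbs12 and library 3 at 2.617 CPM of Gdpd3. Library 4 was at 12696 CPM of Ctsb, 247 CPM of Gpx1 and 144 CPM of Nfkbia. At 45 min library 1 was at 277 CPM of Junb and 43.1 CPM of Ptger4, and library 3 at 79.7 CPM of Spry2. The numbers name columns only in the order of the table. Genes whose 4 libraries of 90 min still all lay on the same side of the 4 of 45 min included Cish, Ier3, Ptger4, Bbs12 and Gdpd3. They also included Ccl3, Ctsb, Gpx1, Junb and Nfkbia.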

How the results depend on the processing

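Over 19 other settings the genes risen numbered 1479 to 2401 and the genes fallen 1409 to 2129, all within 1.5 times of 2096 and 1888, and leaving out 1 library at a time gave 1564 to 1853 risen and 1771 to 2084 fallen. The genes risen at least 2-fold, 484 of them, numbered 282 with a stricter filter, 321 in thinned libraries and 119 among coding genes only, and the 32 fallen at least 2-fold numbered 20 with the stricter filter. The stricter filter and the limit to coding genes test fewer genes, and for thinning the cause was not tested. Of 206 named and called genes 173 stayed called in the same direction in all settings that tested them. With a length and GC trend removed Ccl2 turned to -0.036 and Igf1 to -0.051, both small rises otherwise, and the cause was not tested. Calls on Il10, Edn1 and Nr4a1 were among those lost in thinned libraries. No paired analysis was possible because the columns of the table carry no replicate numbers.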

Other observations

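Of 321 tested genes whose symbol starts with Zfp, mostly DNA-binding proteins, 94 rose (29.3%) and 10 fell (3.12%). Their median was 0.169 against 0.0241 for all genes, of which 14.8% rose and 13.3% fell. In the quintile of coding genes lowest in GC content 25% rose and 3.32% fell. The part of GC content and length in the Zfp counts was not tested. Of 51 tested histone genes 9 rose (17.6%, near the share of all genes) and 0 fell, with a median of 0.227.

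A few list members fell outside the rule for named genes and were picked after their values were seen. Cebpg and Mcoln1, described above, also fell outside that rule. Nr4a3, a nuclear receptor related to Nr4a1, rose from 0.164, 1.23, 1.2 and 1.65 to 1.31, 3.43, 3.4 and 2.32 CPM (1.29, SE 0.38), while Nr4a1 fell. The call on Nr4a3 was lost without 45 min library 1 (0.92, edgeR adjusted p = 0.0542, with a range of 0.0028 to 0.0542 over the settings tried). The p53-linked death gene Bbc3 fell by 0.63 (SE 0.14) from a range of 12.1 to 12.4 CPM to one of 5.48 to 9.52 CPM, and the survival gene Bcl2 rose by 0.43 (SE 0.1) from a range of 11.7 to 13.5 CPM to one of 15.5 to 19.1 CPM.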
